A study of Homo sapiens with 2 samples.

Results

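The mRNAs described here encode 9 proteins that bind AU-rich or other elements of 3' untranslated regions (3'UTRs) and set how long an mRNA lasts or how well it is translated. They are ZFP36, ZFP36L1, ZFP36L2, KHSRP, ELAVL1, TIA1, TIAL1, PUM2 and CPEB4. The members were taken by gene symbol from a table of sites bound by the RNA-binding protein RBM47, so the values below show where RBM47 touched the transcripts of other RNA-binding proteins. All 9 symbols were found, among 7712 genes, and they carried 333 of the 233546 listed clusters and 10194 tags by the authors' total, or 0.229% of the tags in the table. All 9 had at least 1 cluster of 10 or more tags, and 175 of their 333 clusters passed that minimum. Of the 7712 genes 5600 had such a cluster, and 70795 of the 170251 clusters assigned to genes passed.

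RBM47 binding was measured by HITS-CLIP, in which ultraviolet light fixes a protein to the RNA in contact with it, the protein is immunoprecipitated, and the RNA fragments left on it are sequenced. A tag is a unique sequenced fragment, and a cluster is a stretch of genome covered by overlapping tags. The cells were MDA231-BrM2a, a non-clonal derivative of the human breast cancer line MDA-MB-231 selected for brain metastasis, and they carried a Flag-tagged wild-type RBM47 transgene switched on by doxycycline, given at 1 ng/ml for 3 days before crosslinking. The series has 1 group with 2 replicates, and nothing in the labels says whether the replicates came from separate cultures, so the spread between them may be technical. The protein bound was the induced transgene product, and no library from cells without it is analysed here.

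Replicate 1 contributed 999047 tags to the table and replicate 2 contributed 3489697, with medians of 2 and 6 tags per cluster. No listed cluster held fewer than 5 tags in total, and none lacked a tag in either replicate. In 45 of the 333 member clusters the replicate columns added up to more than the authors' total, by 65 tags in all and by at most 5 in any of them. Tag counts were not divided by mRNA abundance, so more binding per molecule and more mRNA cannot be told apart. The markers of a mesenchymal, basal-like line were all listed, with 3232 tags on AXL, 3327 on VIM, 5102 on EGFR and 8404 on CD44 in clusters that reached 10 tags. Of the luminal and epithelial markers, EPCAM had 11 tags and ERBB2 5 tags over all clusters, and no cluster was listed for ESR1, PGR, CDH1 or KRT19.

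AU-rich elements are stretches built on the pentamer AUUUA that mark the mRNAs of cytokines, growth factors and early response genes for rapid turnover. The ZFP36 proteins and KHSRP bind such elements and recruit the enzymes that remove the poly(A) tail and degrade the body of the mRNA, whereas ELAVL1 (HuR) competes for them and stabilizes the message. TIA1 and TIAL1 bind U-rich sequence and hold back translation, the Pumilio protein PUM2 binds a UGUA core and lowers translation and stability, and CPEB4 binds the cytoplasmic polyadenylation element and controls poly(A) tail length. Several of these proteins are known to act on their own mRNAs or on those of their relatives.

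The sequence through which the ZFP36 family acts is also present in the 3'UTRs of that family. The nonamer TTATTTATT, written as DNA and holding the pentamer ATTTA, was searched on the sense strand of the 3'UTR of each gene's canonical GENCODE transcript. It occurred once each in 5 of the 9 members, which were all 3 ZFP36 genes, ELAVL1 and CPEB4. Windows of 30 nt around these matches, read 5' to 3' from the transcript models on GRCh37, are shown because they are the elements that these regulators are known to read, with the nonamer in capitals.
ZFP36: tatgacgactTTATTTATTctaatatgatt
ZFP36L1: aactgttggaTTATTTATTttagaaattcc
ZFP36L2: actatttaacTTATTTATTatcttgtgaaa
ELAVL1: atttatgtatTTATTTATTgaagtgtgaaa
CPEB4: gggagtgcacTTATTTATTtaacttactta
The windows lay at chr19:39899836-39899865 on the plus strand for ZFP36, at chr14:69254793-69254822 on the minus strand for ZFP36L1, and at chr2:43450586-43450615 on the minus strand for ZFP36L2. Those of ELAVL1 and CPEB4 lay at chr19:8026711-8026740 on the minus strand and chr5:173383925-173383954 on the plus strand. The cluster table uses the older build hg18, so the windows could not be laid over the clusters by coordinate and no RBM47 site is assigned to them. By length alone, the ELAVL1 window began at nt 1627 of the 3'UTR. The ELAVL1 clusters with a 3'UTR label spanned 1414 nt, counted from within the coding sequence. The other windows began at nt 497 in ZFP36, 1428 in ZFP36L1, 843 in ZFP36L2 and 785 in CPEB4. Clusters with a 3'UTR label spanned 742, 1912, 1703 and 4408 nt in these genes. The spans are not known to start at the first base of the 3'UTR, and whether a window lay under a cluster was not tested.

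Of the 18343 canonical 3'UTRs of at least 100 nt, 8.9% held the nonamer. Among 3'UTRs within 20% of a member's length the share ran from 5.31% for ZFP36, with a 3'UTR of 708 nt, to 22.5% for CPEB4, with 5843 nt. The pentamer ATTTA was present in all 9 members and in 71% of all 3'UTRs. Among 3'UTRs within 20% of a member's length the share was 64.6% for ZFP36 and 87.6% to 99.1% for the other 8. It occurred 22 times in CPEB4, 13 times each in ELAVL1 and TIA1, 9 times in PUM2, 8 times in ZFP36L1, 5 times each in ZFP36, ZFP36L2 and TIAL1, and once in KHSRP. Per kb of 3'UTR the highest pentamer count was 7.06 in ZFP36 and the lowest 0.520 in KHSRP, against 2.26 over all 3'UTRs together. The Pumilio element TGTANATA, where N is any base, matched 2 times each in PUM2 and TIAL1 and in none of the other 7 members. It was held by 26.8% of all 3'UTRs, and by 42.1% of those within 20% of the length of PUM2 and 34.5% for TIAL1. TTTTAT, a form of the element read by CPEB proteins, matched in all 9 members, from 2 times in ZFP36 to 15 times in CPEB4, and in 58.5% of all 3'UTRs. Among 3'UTRs within 20% of a member's length that share was 43.3% for ZFP36 and 75.3% to 97.2% for the other 8. These matches describe letters and not bound sites.

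CPEB4, PUM2, TIAL1 and ZFP36L1 carried most of the RBM47 tags on these mRNAs, and ZFP36 and TIA1 carried the fewest. The study's limit for a strongly bound transcript of more than 100 tags, summed over clusters that reached 10 tags, was passed by 7 of the 9 members, or 77.8%. That limit was passed by 54.9% of the 5600 genes with such a cluster. The median member had 277 tags and the median gene 127. ZFP36, with 99 tags, lay just below the limit and ELAVL1, with 172, was the next above it. In replicate 2 alone, with 10 tags required in that library, 7 members passed and the median was 208 tags, and in replicate 1 alone 4 passed and the median was 34. The median percentile of the members among all genes was 65.8, and it was 62.9 in replicate 2 alone and 39.1 in replicate 1 alone. With at least 30 tags per cluster 5 members passed and that percentile was 51.2. The share of all genes above 100 tags is not given for these alternatives. No test was made of these counts, because the study has 1 group.

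Among the destabilizing factors, ZFP36L1, which binds AU-rich elements and promotes deadenylation, had 174 tags in replicate 1 and 595 in replicate 2. Scaled to each library that was 0.172 ± 0.00259 tags per 1000 table tags (SD, n = 2). ZFP36L2, its close relative, had 63 and 216 tags, or 0.0625 ± 0.000823 per 1000. ZFP36 itself (tristetraprolin), the founder of the family, had 20 and 81 tags, or 0.0216 ± 0.00226 per 1000. Over the 3 genes the scaled values did not overlap between replicates, with ZFP36L1 highest and ZFP36 lowest in each library. KHSRP, a KH-domain protein that brings decay enzymes to AU-rich mRNAs, had 35 and 139 tags, or 0.0374 ± 0.00339 per 1000.

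ELAVL1, which protects AU-rich mRNAs, had 40 tags in replicate 1 and 136 in replicate 2, or 0.0395 ± 0.000754 per 1000. KHSRP and ELAVL1 exchanged order between the libraries, with KHSRP lower in replicate 1 and higher in replicate 2. The paired translational silencers differed widely, although they are close paralogs. TIAL1 (TIAR) had 276 and 1041 tags, or 0.287 ± 0.0156 per 1000. TIA1 had 17 and 65 tags, or 0.0178 ± 0.00114 per 1000. The 2 libraries agreed on that order.

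PUM2, a sequence-specific repressor, had 498 tags in replicate 1 and 1808 in replicate 2, or 0.508 ± 0.0139 per 1000. CPEB4, a polyadenylation element-binding protein, had 875 and 3133 tags, or 0.887 ± 0.0155 per 1000. By the authors' total CPEB4 held 3996 tags in clusters of at least 10 tags and ranked 93 of 5600 genes, PUM2 held 2292 and ranked 235, and TIAL1 held 1313 and ranked 466. ZFP36L1 ranked 874, ZFP36L2 1915, KHSRP 2444 and ELAVL1 2450, while ZFP36 ranked 3080 and TIA1 3350. The plot of scaled tags by replicate shows the same order in both libraries except for KHSRP and ELAVL1.

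**Figure D1:**
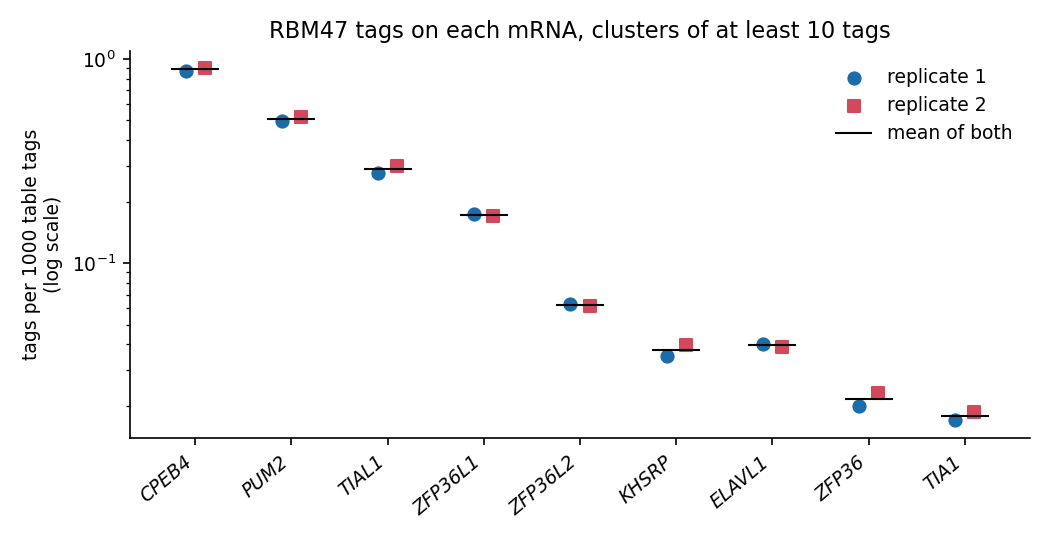
Tags per 1000 table tags on each of the 9 mRNAs in clusters of at least 10 tags, on a log scale, with circles for replicate 1, squares for replicate 2 and a line at their mean. CPEB4 is highest at 0.887 and TIA1 lowest at 0.0178, and the replicates of a gene lie close together beside the differences between most genes.

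Long transcripts collect more tags, so the exonic tags were also divided by the length of the canonical transcript. In tags per kb of transcript, CPEB4 stayed first with 411, followed by PUM2 with 280, TIAL1 with 262 and ZFP36L1 with 255. The remaining members had 75 in ZFP36L2, 56.7 in ZFP36, 36.2 in KHSRP, 28.4 in ELAVL1 and 7.34 in TIA1. A break separated these 4 mRNAs, at 255 or more, from the other 5. The median over the 5312 genes with a length was 25.3, which 8 of the 9 members exceeded. TIA1 stood at percentile 26.9 of these genes and CPEB4 at percentile 95.99.

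Scaled to 1000000 table tags of each replicate, the exonic tags per kb of PUM2 were 59.3 in replicate 1 and 64.0 in replicate 2. On the same scale TIAL1 had 53.1 and 60.0, and ZFP36L1 had 57.7 and 56.5. TIAL1 and ZFP36L1 exchanged order between the libraries and do not differ beyond their spread. PUM2 was above TIAL1 within each library, although the TIAL1 value of replicate 2 exceeded the PUM2 value of replicate 1. The values of all other neighbors did not overlap between replicates. CPEB4 had 91.2 ± 1.5, ZFP36L2 16.9 ± 0.223 and ZFP36 12.4 ± 1.29 (SD, n = 2). KHSRP had 7.98 ± 0.366, ELAVL1 6.53 ± 0.125 and TIA1 2.02 ± 0.499.

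The tags on these mRNAs lay mostly in 3'UTRs. In clusters of at least 10 tags, 63.8% of the member tags were in clusters labeled 3'UTR alone (Wilson 95% interval 62.8 to 64.8), with 63.2% ± 1.41 over the replicates (SD, n = 2). The coding sequence (CDS) held 13.6%, introns 11.1% and clusters spanning CDS and 3'UTR 6.0%. Over all deposited clusters the intron share was 17.8% in the members and 27.5% in all genes. Over all genes the shares were 47.2% for the 3'UTR, 10.2% for the CDS, 18.6% for introns and 11.5% for CDS with 3'UTR. CPEB4 alone supplied 3012 of the 5852 3'UTR tags, and without it the members' share was 54.9%. Gene by gene, 7 of 9 members had most of their tags in the 3'UTR, against 61.7% of the 5600 genes, and the median share was 67.6% in the members and 69.8% in all genes.

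The ZFP36 family had no tags in introns, which total 814 nt in ZFP36, 2389 nt in ZFP36L1 and 512 nt in ZFP36L2. In clusters of at least 10 tags, 4 of the 9 members and 3641 of the 5600 genes had no intron tags. ZFP36 and ZFP36L2 had all of their 99 and 277 tags in clusters labeled 3'UTR when clusters of at least 10 tags were counted (Wilson lower bounds 96.3% and 98.6%). For ZFP36 that left 2 of 6 clusters, and over all 6 the 3'UTR label held 79.2% of 125 tags, CDS with 5'UTR 13.6% and CDS with 3'UTR 7.2%. ZFP36L2 stayed at 100% over all 9 of its clusters. ZFP36L1 had 66.7% there and a further 30.2% in a single cluster of 232 tags over the end of the CDS and the start of the 3'UTR. That cluster had 66 tags in replicate 1 and 166 in replicate 2, which was 37.9% and 27.9% of the gene's tags, and the share labeled 3'UTR alone was 59.8% and 68.6%. ELAVL1 had 82.6% in the 3'UTR and none in introns. KHSRP had 67.6% in the 3'UTR, 22.0% in the CDS and 10.4% in 1 intron cluster of 18 tags.

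The translational silencers and PUM2 had the largest intronic parts. TIA1 had 56.4% of its 78 tags in introns and 43.6% in the 3'UTR, but the order turned in the smaller library, with 35.3% in introns in replicate 1 and 58.5% in replicate 2. It also turned over all 20 deposited TIA1 clusters, of which 7 reached 10 tags, with 51.8% of the tags in the 3'UTR and 44.6% in introns. TIAL1 had 54.3% in the 3'UTR and 23.6% in introns. PUM2 tags were spread over several regions, with 41.3% in the 3'UTR, 28.6% in the CDS and 22.8% in introns. CPEB4 had 75.4% in clusters labeled 3'UTR alone and a further 4.9% in the cluster over CDS and 3'UTR, less than the same parts of ZFP36L1 together, and was alone in having clusters of at least 10 tags labeled 5'UTR, 4 of them with 234 tags or 5.86%. The 5'UTR label held 0.388% of the tags over all genes.

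**Figure D2:**
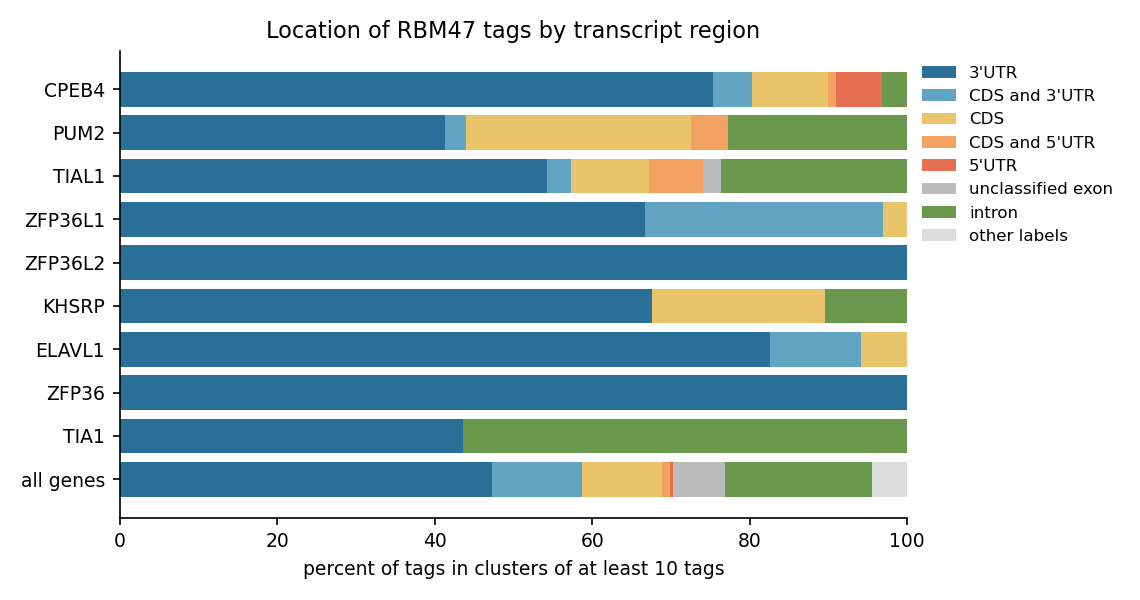
Percent of tags in clusters of at least 10 tags by transcript region for each member and for all genes with a gene symbol. The dark blue 3'UTR part fills the bar of ZFP36 and ZFP36L2, falls to 41.3% in PUM2, and is 47.2% in all genes. The green intron part is largest in TIA1 at 56.4%.

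Regions differ in length, so tags over all deposited clusters were divided by the length of each region in the canonical transcript. In all 7 members with CDS tags the 3'UTR was denser than the CDS. CPEB4 had 516 tags per kb of 3'UTR, 180 per kb of CDS and 5.75 per kb of intron. PUM2 had 334, 216 and 9.34, and TIAL1 had 324, 115 and 23.1. The ratio of 3'UTR to CDS density was smallest in PUM2, at 1.47 ± 0.187, and it was 2.83 ± 0.0494 in TIAL1 and 2.72 ± 0.479 in CPEB4 (SD over replicates, n = 2).

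Of the 7 members with a ratio of 3'UTR to CDS density, ZFP36L1 had the highest mean, 10.2 ± 1.69 (SD, n = 2). It had 278 tags per kb of 3'UTR and 28.5 per kb of CDS. The ZFP36L1 ratio rests on 29 CDS tags and leaves out the cluster of 232 tags that spans both regions. TIA1, with 6 CDS tags, had a ratio of 7.02 ± 3.61. Its replicate 1 value of 9.57 exceeded the ZFP36L1 value of 9.02 in replicate 2. ZFP36L2 and ZFP36 had 147 and 140 tags per kb of 3'UTR and no cluster labeled CDS alone. KHSRP had 66.6 per kb of 3'UTR and 33.9 per kb of CDS, ELAVL1 28.9 and 10.2, and TIA1 26.3 and 5.17. Over the 2510 genes above 100 tags with tags in both regions, the median was 127 per kb of 3'UTR, 37.7 per kb of CDS and 0.502 per kb of intron, and the median ratio was 3.59 with quartiles of 1.80 and 6.92. The ratios of the total tags lay between those quartiles in 5 of the 7 members with a ratio, with PUM2 (1.55) below and ZFP36L1 (9.75) above.

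**Figure D3:**
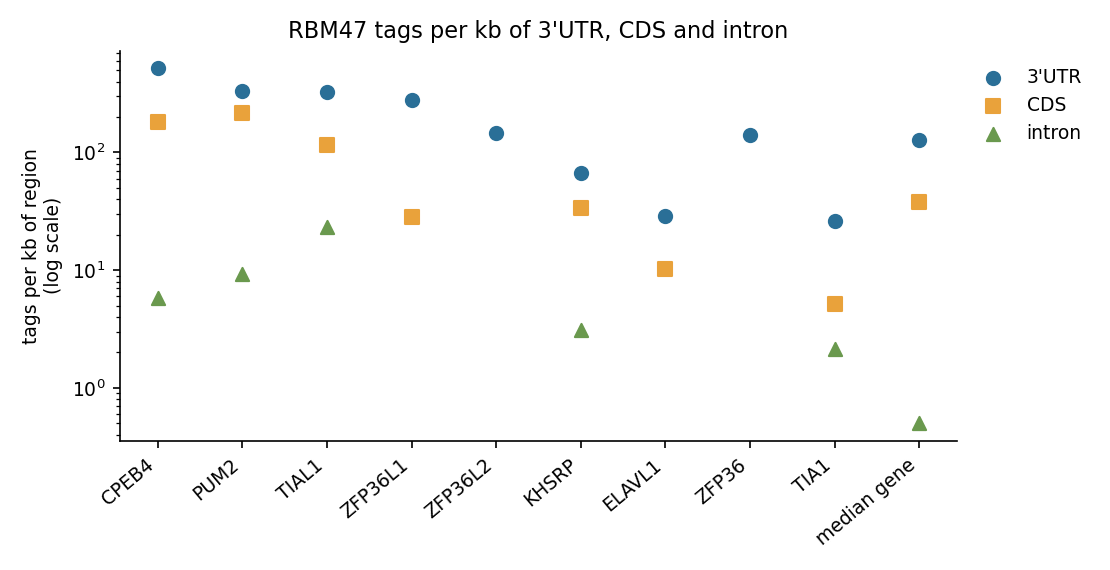
Tags per kb of 3'UTR (circles), CDS (squares) and intron (triangles) on a log scale for each member and for the median of the genes above 100 tags. Regions with no cluster of that label alone have no symbol, which applies to the CDS of ZFP36 and ZFP36L2 and to the introns of the ZFP36 family and ELAVL1. Circles lie above squares in every gene that has both, with the closest pair in PUM2.

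Single clusters in 3'UTRs were also deeper than those in introns. Pooled over the members, the median cluster of at least 10 tags had 43 tags in the 3'UTR and 15 in introns. That was a ratio of 2.87, and the medians over all genes were 22 and 14. Within genes the 2 medians were 115.5 and 11.5 in CPEB4, 75 and 17.5 in TIAL1, and 49 and 15.5 in PUM2. They were close in KHSRP, with 21 and 18 (1 intron cluster), and in TIA1, with 11 and 10.5. The other members had no such intron cluster. Of the 333 member clusters, 22 had at least 100 tags, and CPEB4 had 10 of these, PUM2 5, ZFP36L1 4 and TIAL1 3. The smallest of the 22, a CPEB4 cluster of 102 tags, ranked 4347 among the 233546 clusters of the table. The median length was 85 nt for member clusters and 82 nt for all clusters.

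Along the bound 3'UTRs, RBM47 clusters formed a nearly unbroken cover in CPEB4, TIAL1 and PUM2 and isolated islands in TIA1. In CPEB4, 14 clusters covered 95.8% of a span of 4408 nt on the plus strand of chromosome 5, which begins in the CDS and is shorter than the canonical 3'UTR of 5843 nt. Its largest cluster ran over 1404 nt, from 173318333 to 173319737 on hg18, with 269 tags in replicate 1 and 933 in replicate 2. This cluster held 1202 tags, or 28.3% of all tags on CPEB4, and was number 152 of all clusters in the table. Its density of 85.6 tags per 100 nt was not the highest of the gene, which was 165 in a cluster of 351 tags from 173316219 to 173316432. A cluster of 396 tags lay directly downstream of that, from 173316441 to 173316919.

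TIAL1, on the minus strand of chromosome 10, had 10 clusters over 96.8% of a span of 2421 nt, with no gap above 25 nt. Its deepest clusters, of 141, 140 and 131 tags, lay at 121324581 to 121325072, 121322890 to 121323255 and 121324124 to 121324427. PUM2, on the minus strand of chromosome 2, had 15 clusters over 90.4% of 2977 nt. Its deepest clusters, of 173, 166 and 155 tags, lay at 20314139 to 20314462, 20313032 to 20313366 and 20313576 to 20313998. In PUM2 54.0% of these tags lay in the upstream part of the span up to its midpoint, and in TIAL1 52.5%, so neither mRNA showed a strong lean to an end of the 3'UTR.

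ZFP36L1, on the minus strand of chromosome 14, had 8 clusters over 79.2% of 1912 nt. Besides the cluster over the stop codon region at 68325554 to 68326049, its deepest clusters had 151 tags at 68324721 to 68324909 and 132 tags at 68324413 to 68324588. The ZFP36L1 clusters downstream of 1000 nt reached 80.3 tags per 100 nt, against 46.9 in the cluster over the stop codon region. ZFP36L2, on the minus strand of chromosome 2, had 9 clusters over 77.1% of 1703 nt, with the most tags, 78, at 43303055 to 43303451. It was followed by clusters of 47 tags each at 43303454 to 43303652 and 43303880 to 43304020. ZFP36, on the plus strand of chromosome 19, had 89 of its 125 tags, or 71.2%, in 1 cluster of 396 nt, the most 3' of the gene, from 44591496 to 44591892, with 18 tags in replicate 1 and 72 in replicate 2. The next clusters of ZFP36 had 10 tags at 44591373 to 44591497 and 9 tags at 44591150 to 44591207.

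ELAVL1, on the minus strand of chromosome 19, had all of its 3'UTR clusters in the first part of a long 3'UTR. They spanned 1414 nt, counted from the cluster over the end of the CDS, whereas the canonical 3'UTR has 4910 nt. Its clusters were shallow, with 36 tags at 7934115 to 7934358, 32 at 7933260 to 7933377 and 26 at 7933452 to 7933620. KHSRP, also on the minus strand of chromosome 19, had 7 3'UTR clusters in a span of 801 nt, and its canonical 3'UTR has 1922 nt. No KHSRP cluster lay over the end of the CDS, so where that span falls in the 3'UTR is not known. The largest KHSRP cluster, of 44 tags, lay at the upstream end of the span, from 6364850 to 6364921. Clusters of 28 tags followed, 1 in the 3'UTR at 6364590 to 6364645 and 1 in the CDS at 6366074 to 6366314. TIA1, on the minus strand of chromosome 2, had 10 clusters that covered only 30.1% of 3084 nt, with a median gap of 178 nt, and no TIA1 cluster had more than 13 tags. Its deepest were 13 tags each in the 3'UTR at 70290810 to 70290991 and in an intron at 70305468 to 70305523, and 11 tags in the 3'UTR at 70291169 to 70291252.

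**Figure D4:**
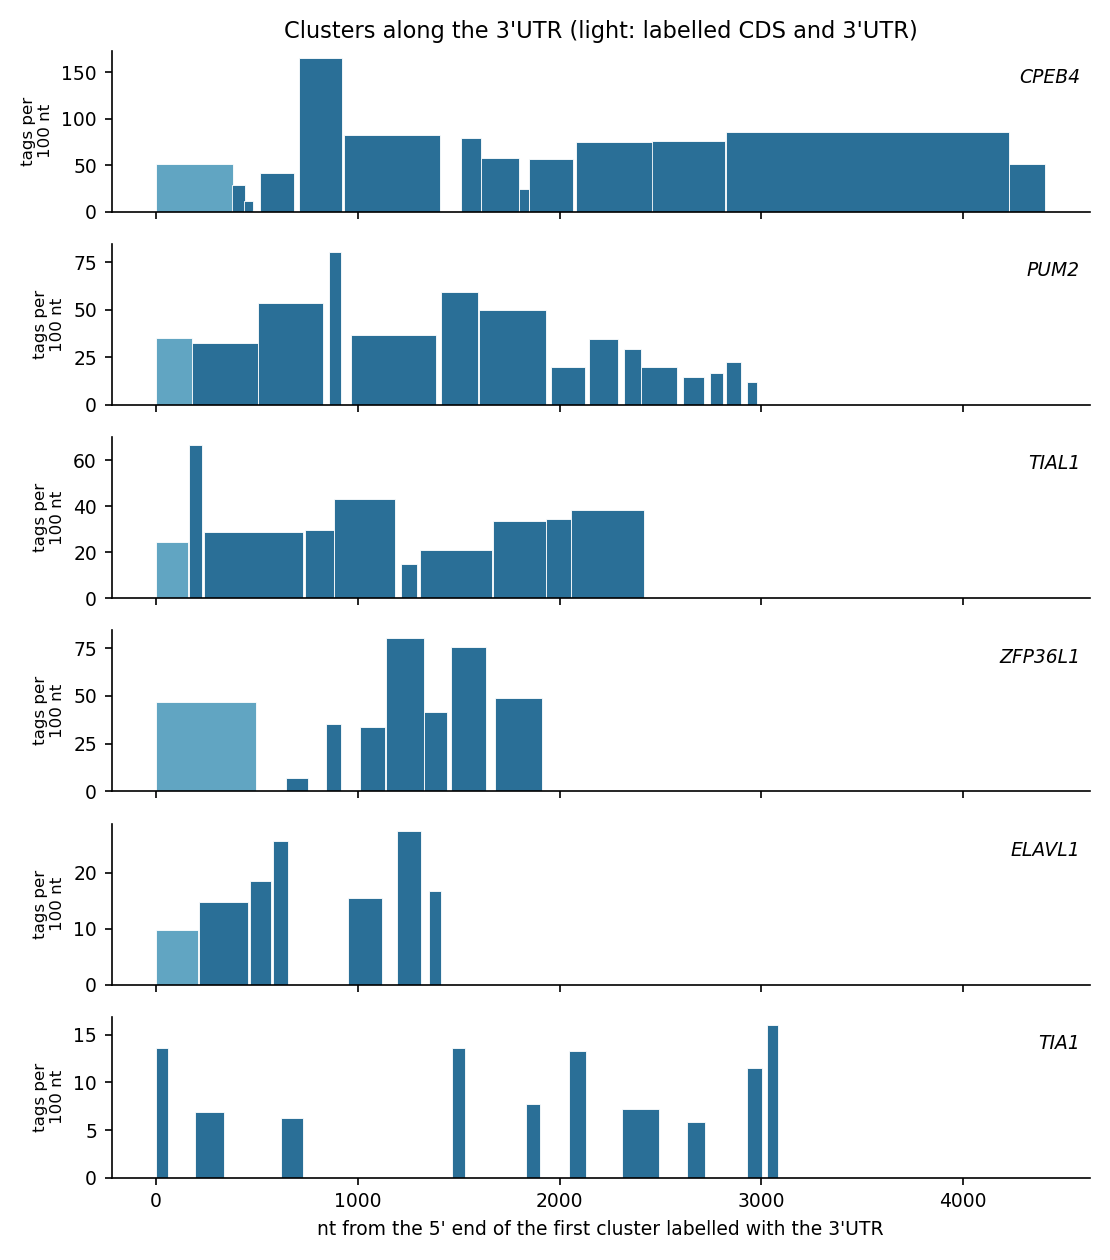
Density of each cluster, in tags per 100 nt, against distance in nt from the first cluster that carries a 3'UTR label, for 6 of the members. Bar widths are cluster lengths and light bars are clusters over CDS and 3'UTR. CPEB4, PUM2 and TIAL1 are covered almost without gaps between their own first and last clusters, while TIA1 has separate narrow clusters of no more than 13 tags, and the vertical scales differ between panels.

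PUM2, CPEB4 and TIAL1 had enough intron clusters to describe where in the introns the tags lay. PUM2 had 85 intron clusters with 895 tags, and 454 of these tags fell in 26 clusters within 4.015 kb, from 20337056 to 20341071. That was the shortest stretch with at least 50% of the intron tags and made up 4.43% of the span of its intron clusters. Among 958 genes with at least 20 intron clusters, 8.35% had a shorter stretch by this measure, and the median was 17.5%. The stretch began 72.9 kb from the most 5' cluster of PUM2, and its deepest cluster had 69 tags. CPEB4 had 47 intron clusters with 369 tags, of which 186 lay in 6.325 kb or 10.4% of the span, from 173295415 to 173301740. TIAL1 had 40 intron clusters with 454 tags, of which 231 lay in 3.435 kb or 17.5% of the span, from 121341900 to 121345335, at the 5' end of the gene. CPEB4 and TIAL1 were inside the middle range of those genes, whose quartiles were 9.75% and 26.6%.

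**Figure D5:**
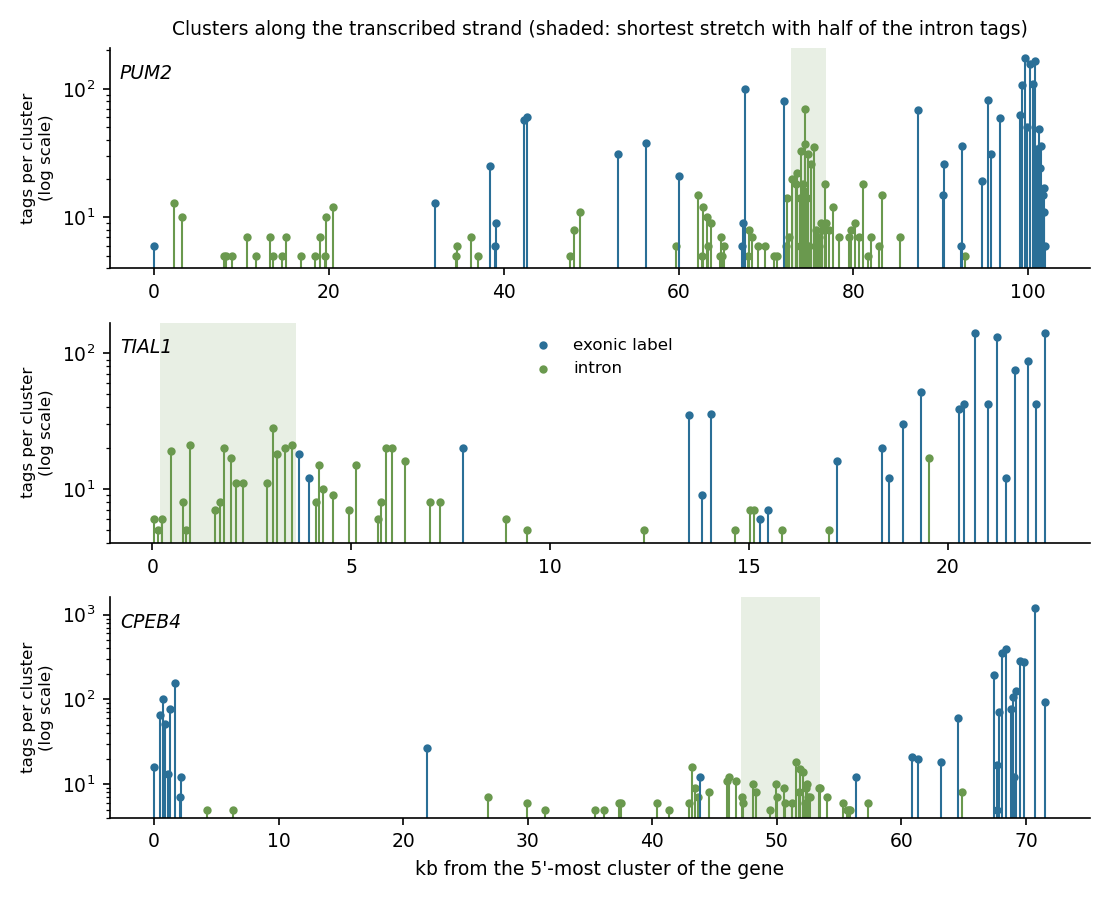
Tags per cluster on a log scale against distance in kb from the most 5' cluster, along the transcribed strand of PUM2, TIAL1 and CPEB4, with exonic labels in blue and introns in green. The shaded stretch holds at least 50% of a gene's intron tags and is 4.015 kb in PUM2, 3.435 kb in TIAL1 and 6.325 kb in CPEB4. The deepest clusters of each gene lie at its 3' end.

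The replicates were compared on these mRNAs by the share of tags that came from replicate 1, which was 22.3% over all clusters. A two-sided exact binomial test with Benjamini-Hochberg adjustment over the whole table called 26 clusters, or 0.0111%, and 0 of the 333 member clusters. At an unadjusted p under 0.05 there were 10 member clusters, or 3.0%, against 3.04% of all clusters. The smallest adjusted p of a member cluster in that test was 0.909, for a PUM2 cluster in the 3'UTR from 20313367 to 20313551 with 10 and 99 tags. Summed per gene, the exact test called 117 genes, or 1.52%, and 0 of the 9 members, and none of the 9 had an unadjusted p under 0.05, against 10.5% of all genes. A beta-binomial test that allows extra spread between the libraries called 10 clusters and 6 genes, none of them a member.

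Per gene the replicate 1 share ran from 20.5% in ZFP36 (Wilson 95% interval 14.4 to 28.3) to 24.7% in TIA1 (18.8 to 31.7). CPEB4, the most deeply covered member, had 21.97% (20.8 to 23.2). By region the share was 21.3% in 3'UTRs, 23% in the CDS and 24.2% in introns of the members (Wilson 95% intervals 20.3 to 22.3, 20.8 to 25.3 and 22.3 to 26.3), and 21.1%, 21.7% and 24.1% over all clusters. Across the 333 member clusters, which share their libraries and are not independent, the replicates had a Spearman's rho of 0.679 and, on log2 tags, a Pearson's r of 0.863. In the 70 member clusters of at least 30 tags rho was 0.863 and r was 0.898. Over all clusters of the table rho was 0.447 and r was 0.740, and over all those of at least 30 tags 0.764 and 0.889. Only clusters with a tag in both replicates are listed, which limits what these values say about agreement.

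Other proteins that bind 3'UTRs were examined from a list of 33 genes. Of these, 26 had a cluster, 25 had a cluster of at least 10 tags and 22, or 66.7%, exceeded 100 tags. In such clusters 8 had no tag, and the median over the list was 282 tags. The list includes genes without a cluster, unlike the 5600 genes used above. Among the 7712 genes with any cluster, 39.9% exceeded 100 tags and the median was 49, and that base still leaves out genes without a cluster. The most tags were on RC3H1 (2035), which encodes Roquin, a stem-loop-binding decay factor. G3BP2, a stress granule protein, had 1933 tags and LARP4, a poly(A)-associated protein, 1490. In exonic tags per kb of transcript the order changed, with 447 in G3BP2, 228 in LARP4 and 178 in RC3H1. The highest density of the list was on PABPC1, a poly(A)-binding protein, with 476 per kb, and PCBP1, a poly(C)-binding protein, had 420, both named after their values were seen. CPEB2, a relative of CPEB4, had 711 tags and 101 per kb, against 411 per kb in CPEB4. HNRNPD (AUF1), which binds AU-rich elements, had 164 tags and 45.6 per kb. CPEB3 with 106 tags and CELF2 with 73 lay nearest to the limit on either side. In replicate 1 alone, with 10 tags required in that library, 7 of the list exceeded 100 tags, and in replicate 2 alone 20 did.

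The effectors that these regulators recruit were examined from a list of 28 genes of the deadenylation and decay machinery. A cluster was listed for 21 of them, a cluster of at least 10 tags for 19, and 14, or 50%, exceeded 100 tags. The median over the list was 119.5 tags, and 9 genes had no tag in clusters of at least 10 tags. Over the 7712 genes with any cluster the share was 39.9% and the median 49. DCP2, the catalytic decapping enzyme, had 2707 tags, 88.3% of them in the 3'UTR. It was the 1 gene of both lists whose split between the libraries passed the exact binomial test (adjusted p = 0.0285), with 559 tags in replicate 1 and 2336 in replicate 2 over all its clusters. BTG1, an antiproliferative protein that binds the deadenylase complex, had 2313 tags, 68.7% of them in introns, and PAN3, a subunit of the PAN2-PAN3 deadenylase, had 1686 tags, 93.0% in introns. Per kb of transcript the exonic tags were 262 in DCP2, 156 in BTG1 and 21.1 in PAN3. CNOT9 with 140 tags and TOB2 with 99 lay nearest to the limit. In replicate 1 alone 3 of the list exceeded 100 tags and in replicate 2 alone 13, and with at least 30 tags required per cluster 7 did.

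No cluster listed under another gene, and none on the opposite strand, lay inside the span of any of the 9 members. Each cluster is listed under a single gene, so this cannot show whether some tags came from an overlapping transcript on the same strand. Whether the near-identical stretches that paralogs can share affected the mapping was not tested.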

How the data were processed

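Flag-RBM47 HITS-CLIP was measured in 2 replicates of 1 group. The authors collapsed mapped reads to unique tags and clustered them. Each deposited row gives counts of tags for the replicates and in total, a gene and a location label. The submitters' processing notes name Novoalign and hg18. Whether coordinates count from 0 or 1 is not known. Unused value columns numbered 0.

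Members and lists were chosen with earlier results of these data known. Genes named were the 9 members, the 3 genes with most tags in each list, those nearest to 100 tags, CPEB2 and HNRNPD. A further gene chosen from the lists is not reported here. Clusters named were a member's 3 deepest and any passing the split test; the PUM2 cluster with the smallest adjusted p was named after its value was seen.

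Sums used the authors' total in clusters of at least 10 tags unless all clusters are stated. The split test took the replicate 1 share of all cluster tags (or, per gene, of all gene tags) as reference. Its threshold was 0.05, and it was tested on simulated data with changes set only in clusters of at least 100 tags. Of the 333 member clusters, 22 had that many tags. Wilson intervals cover counting error only. Lengths and motifs came from GENCODE canonical transcripts on GRCh37 and were available for 94.9% of genes. RefSeq paired 7669 of 7712 gene IDs with symbols. Python 3.11.15, pandas 2.3.3, scipy 1.17.1 and statsmodels 0.14.6 were used. The alternatives were other tag minimums, single replicates, the replicate sum, merged clusters, other labels and other reference shares.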

Additional observations from a re-analysis of the deposited data

Results flagged for a closer look

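Clusters without a gene symbol, which enter no value above, lay within 10 kb downstream of 2 members on the same strand. Downstream of TIAL1 there were 2 such clusters with 78 tags, 17 in replicate 1 and 61 in replicate 2, at 1242 to 1480 nt from the last TIAL1 cluster. They would add 5.27% to the tags of the gene. Downstream of CPEB4 there were 2 clusters with 11 tags, 5 in replicate 1 and 6 in replicate 2, at 1 to 218 nt from the last CPEB4 cluster. The CPEB4 clusters with a 3'UTR label spanned 4408 nt from within the CDS, which is shorter than the canonical CPEB4 3'UTR of 5843 nt. No control library gives a background level for the clusters without a symbol. Whether they belong to 3' ends of the same mRNAs beyond the labeled clusters was not tested.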

How the results depend on the processing

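No paired analysis was possible because the series has a single group. With all deposited clusters, the median over the members was 282 tags, the median percentile 69.8, the 3'UTR share 58.3%, the intron share 17.8% in place of 11.1% (8.68% in place of 3.18% in CPEB4) and the ratio of 3'UTR to intron tags per cluster 4.86. With at least 30 tags per cluster these were 217, 51.2, 72.8% and 2.53, and 7 genes of the decay machinery passed 100 tags. The number of members above 100 tags was 9 with all clusters, 5 with at least 30 tags and 8 with the sum of the replicate columns. Leaving out a replicate, with the minimum of 10 tags applied to the other, gave 4 to 7 members above 100 tags, a median of 34 to 208 tags, a median percentile of 39.1 to 62.9, a 3'UTR share of 65.5% to 71.6% and a ratio of 2.17 to 2.93. The other 3'UTR-binding regulators above 100 tags then numbered 7 to 20 and the decay machinery 3 to 13. The smaller numbers of genes came from replicate 1 alone, the smaller library, in which ELAVL1 and TIA1 had no cluster of 10 tags. Per kb of cluster length the median percentile was 72.3, with every label that includes the 3'UTR the share was 69.8%, and per nt of cluster the ratio was 2.34. Without CPEB4, an alternative chosen after seeing the data, the share was 54.9% and the ratio 2.44. The split test called 0 member clusters and 0 member genes under every alternative run. The median of 2 tags per cluster in replicate 1 limits what the split of a single cluster can show.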
